A study of Arabidopsis thaliana with 8 samples.

Results

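The genes described here are nuclear genes of the mitochondrial ATP synthase and of the pathways that bypass it, followed across roots and shoots of Arabidopsis thaliana by the ribosome footprints counted on their coding sequences. They were chosen by identifier and make up 10 of the 27416 genes in the deposited table: 3 genes for the beta subunit of the ATP synthase (AT5G08670, AT5G08680 and AT5G08690), ATP3 (AT2G33040, gamma), ATP5 (AT5G13450, the OSCP subunit, named delta in the gene table), AT5G47030 (delta-prime), the alternative oxidases AOX1A (AT3G22370), AOX1C (AT3G27620) and AOX2 (AT5G64210), and the uncoupling protein UCP1 (AT3G54110). The plants were ecotype Col seedlings grown in liquid medium with sucrose under long days, and their roots and shoots were taken at an age of 4 days, 3 h after the light came on. Root and shoot were each lysed in 4 polysome buffers, and every combination gave 1 library, so that there were 8 in all and 4 of each tissue. All buffers shared cycloheximide, a reducing agent, detergents and DNase. KCl fell from 50 mM in A through 40 mM in B to 30 mM in C, and MgCl2 fell with it from 25 to 20 to 15 mM, all at 200 mM Tris. Buffer D combined 40 mM KCl with 20 mM MgCl2 at a lower Tris concentration, 100 mM. No genotype or treatment other than the buffer differed between libraries. The 4 buffers stood in as repeats of a tissue, and since no label ties them to separate plants, p-values measure only the spread between these libraries, which may be technical.

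The mitochondrial ATP synthase is a rotary enzyme that makes ATP from ADP and phosphate as protons flow back into the matrix. Its catalytic head is built from alpha and beta subunits around a rotating shaft of gamma, delta-prime and epsilon, and the OSCP subunit ties the head to the peripheral stalk. In plants alpha is encoded in the mitochondrial genome and beta in the nucleus, so the complex draws on both sets of ribosomes, of which the nuclear genes here use the cytosolic one. The alternative oxidases pass electrons from ubiquinol straight to oxygen and bypass proton pumping at complexes III and IV, and AOX1A is the isoform best known for its induction when the mitochondrial electron transport chain is disturbed. UCP1 is a carrier of the inner membrane that dissipates the proton gradient. Both thereby loosen the tie between respiration and ATP synthesis.

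Root libraries held between 1120218 and 3410266 counts and shoot libraries between 3746348 and 4501213, so root values carry more counting error. The tissue labels were checked against marker genes. The antenna gene CAB1 lay between 65.4 and 84.9 CPM (counts scaled to a common library total, with the TMM factor) in root and between 10707 and 11954 in shoot, and the auxin carrier EIR1 between 74.3 and 98.8 CPM in root and between 1.86 and 2.54 in shoot. A count on a coding sequence combines the amount of mRNA with how densely it is translated, and in whole organs it also depends on the share of cells that express the gene, and these cannot be told apart here. Levels are not corrected for coding length, which the sources used here do not give, so levels are compared between tissues and buffers, not between genes.

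The question put to the members was whether ribosomes engaged the ATP synthase and the bypass genes differently in root and shoot. Of the 10 members, 8 had enough counts to be tested. Among them 6 carried more footprints in root, 0 carried fewer, and 2 did not pass (edgeR quasi-likelihood test with tissue and buffer as terms, Benjamini-Hochberg adjusted p under 0.05). Of the 15664 genes tested, 17.8% were called higher in root and 22.6% lower, 40.3% in all. The median log2 fold change of the 8 members, root minus shoot, was 0.43, against -0.12 over all genes tested. The called rises were between 1.20-fold and 1.46-fold for the ATP synthase genes and 2.09-fold for AOX1A. In 4 of the 8 members every root library lay above every shoot library, which held for 19.8% of all genes tested. AOX1C and AOX2, the members left out of the test, had 1 root count each.

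The gamma subunit gene ATP3, whose product is the rotor shaft, had the lowest adjusted p of the 6 nuclear ATP synthase members. It had 724, 729, 765 and 704 CPM in root A, B, C and D, and 431, 515, 577 and 485 CPM in shoot A, B, C and D. Every root library lay above every shoot library. The means were 730 ± 25.7 CPM in root and 502 ± 60.9 CPM in shoot (SD, n = 4 each), and the log2 fold change was 0.55 ± 0.10 SE (edgeR adjusted p = 0.00119).

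ATP5, which links the head to its stalk, followed the same direction. Its root values were 487, 438, 503 and 450 CPM and its shoot values 363, 324, 367 and 320 CPM. The groups did not overlap, and the root excess was even across the buffers, between 0.42 and 0.49 on the log2 scale. The fitted log2 fold change was 0.45 ± 0.10 (edgeR adjusted p = 0.00425).

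The delta-prime gene AT5G47030, a part of the rotor, had 482, 433, 519 and 598 CPM in root and 320, 386, 332 and 438 CPM in shoot. Root was higher in each of the 4 buffers, but the groups overlapped, since shoot D lay just above root B. In both tissues buffer D gave the highest value. The log2 fold change was 0.46 ± 0.11 (edgeR adjusted p = 0.00755), and it was 0.40 (adjusted p = 0.0608) without root C and 0.38 (adjusted p = 0.0596) without shoot C.

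**Figure D1:**
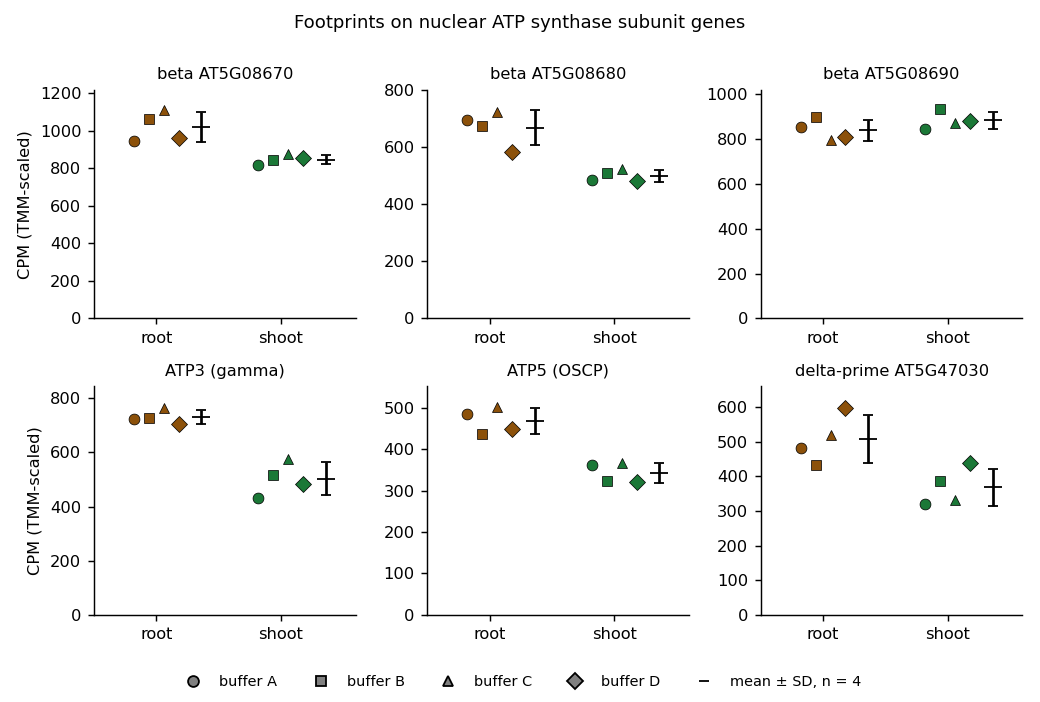
Footprint levels (CPM, scaled by library size and TMM factor, linear axis from 0) of the 6 nuclear ATP synthase genes. Each point is 1 library, with its buffer given by the symbol, and the bar is the mean ± SD of the 4 libraries of a tissue. ATP3, ATP5, AT5G08670 and AT5G08680 do not overlap between the tissues, while AT5G08690 lies at 839 CPM on average in root and 884 CPM in shoot.

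The 3 beta subunit genes, which encode the catalytic subunit, did not share one pattern. They stand next to each other in the RefSeq gene order and are close copies, so reads could be counted at more than one of them, and their single values are uncertain. AT5G08680 had 696, 673, 722 and 584 CPM in root and 484, 510, 522 and 480 CPM in shoot. These groups did not overlap, and the log2 fold change was 0.42 ± 0.10 (edgeR adjusted p = 0.00512).

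AT5G08670 had 946, 1064, 1112 and 963 CPM in root against 815, 841, 873 and 854 CPM in shoot, again without overlap. Its log2 fold change of 0.27 ± 0.09 passed (edgeR adjusted p = 0.0302). The call was lost without root A (0.28, adjusted p = 0.0782), root B (0.24, adjusted p = 0.140), root C (0.23, adjusted p = 0.147), shoot A (0.27, adjusted p = 0.0728), shoot B (0.24, adjusted p = 0.126) or shoot C (0.22, adjusted p = 0.149), without the filter on low counts (0.22, adjusted p = 0.111) and with DESeq2 (0.26, adjusted p = 0.0897).

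AT5G08690 had 854, 897, 794 and 810 CPM in root and 847, 937, 871 and 881 CPM in shoot. Root and shoot overlapped and the log2 fold change was -0.08 ± 0.09 (edgeR adjusted p = 0.538). With library totals alone it was 0.42 (adjusted p = 0.00193), so its direction depended on the scaling.

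The composition of the beta footprints differed between the tissues, a measure that no scaling between libraries can move. AT5G08690 took 34.2%, 34.1%, 30.2% and 34.4% of the 3 genes' counts in root A to D and 39.5%, 41.0%, 38.4% and 39.8% in shoot. Every shoot library lay above every root library, with means of 33.2 ± 2.00% and 39.7 ± 1.04% (SD, n = 4 each; adjusted p = 0.0429 over 6 shares). The unadjusted two-sided exact permutation p was 0.0286, below which 4 against 4 libraries cannot go. The share of AT5G08680 moved the other way, from 26.4 ± 1.49% in root to 22.4 ± 0.568% in shoot, also without overlap (two-sided exact permutation p = 0.0286, adjusted p = 0.0429). AT5G08670 held 40.4 ± 1.82% in root and 38.0 ± 0.840% in shoot, with overlapping values (two-sided exact permutation p = 0.114, adjusted p = 0.137). The shares of the 3 genes are bound to each other, so a rise in one forces a fall elsewhere, while the adjusted p takes all 6 shares as separate tests. Whether reads shared between the copies had a part in these shares was not tested.

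Summed over its 3 genes, beta came to 2495, 2635, 2628 and 2358 CPM in root and 2146, 2288, 2266 and 2215 CPM in shoot. The tissues did not overlap, but the difference was small and did not pass the test (log2 fold change 0.18 ± 0.07, edgeR adjusted p = 0.0711). The lowest root value, in buffer D, lay just above the highest shoot value, in buffer B. If a read was counted at more than one copy, the sum counts it repeatedly.

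Ratios of 2 genes within a library, which are also free of the scaling, set the other subunits against beta. The count ratio of gamma to summed beta was 1.29-fold higher in root, with log2 ratios of -1.79 ± 0.0460 in root and -2.16 ± 0.142 in shoot (SD, n = 4 each). The tissues did not overlap (two-sided exact permutation p = 0.0286, adjusted p = 0.08 over 7 ratios). For OSCP to summed beta root was 1.21-fold higher and for delta-prime to summed beta 1.22-fold higher, both with overlap (two-sided exact permutation p = 0.0571 and p = 0.2, adjusted p = 0.08 and 0.233). None of the 7 ratios passed after adjustment. With 4 against 4 libraries the two-sided exact permutation p cannot go below 0.0286. Over 7 ratios such a p passes only if most of them reach it, so a ratio without overlap could fail here.

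Of the alternative oxidases, AOX1A carried nearly all root footprints. It had 38.7, 44.0, 25.7 and 40.5 CPM in root A to D and 11.7, 28.2, 18.5 and 14.9 CPM in shoot, from 347 counts in root and 249 in shoot. Root was higher in each of the 4 buffers, but shoot B lay above root C, so the groups overlapped. The root excess was 1.73 and 1.44 on the log2 scale in buffers A and D, and 0.64 and 0.48 in buffers B and C.

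Over all buffers the AOX1A means were 37.2 ± 7.95 CPM in root and 18.3 ± 7.16 CPM in shoot (SD, n = 4 each). The log2 fold change was 1.07 ± 0.32 (edgeR adjusted p = 0.0203), and DESeq2 also called it. The call was lost without root A (0.84, adjusted p = 0.125), shoot A (0.82, adjusted p = 0.116), root D (0.94, adjusted p = 0.0688) or shoot D (0.92, adjusted p = 0.0642). Omitting the root or the shoot library of one buffer is nearly the same check, because the buffer term then absorbs the library that is left.

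AOX1C footprints were found almost wholly in shoot. It had 10, 14, 13 and 10 counts in shoot A to D, and 1 count in root A and 0 in root B, C and D. The pooled level was 32.3-fold higher in shoot, with an exact 95% interval from 5.51 to 1301 that covers counting error only. AOX1C was too low for the filter of the main test. Without that filter its fitted difference did not pass (edgeR adjusted p = 0.0587), and this fitted value depends on the prior count.

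AOX2 had 1 count, in root A, and 0 in the other 7 libraries. At this depth 3 counts, the floor chosen here, would stand for 0.321 CPM over the root libraries and 0.220 CPM over the shoot libraries. Levels under this floor are not interpreted. No fold is given for it.

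The 3 AOX members thus had a different make-up in the 2 tissues, in shares that leave out AOX1B. AOX1C held 0.645% of the counts of the 3 genes in root A and 0% in the other root libraries, against 18.5%, 12.4%, 18.1% and 17.5% in shoot A to D. Its means were 0.161 ± 0.323% and 16.6 ± 2.85% (SD, n = 4 each), with no overlap (two-sided exact permutation p = 0.0286, adjusted p = 0.0429 over 6 shares). AOX1A held 99.7 ± 0.645% in root and 83.4 ± 2.85% in shoot (the same exact p), and the single AOX2 count made up 0.645% in root A. The shares of AOX1A and AOX1C nearly mirror each other, so they are not separate results. AOX1B, the neighbour of AOX1A in the gene order, also had its counts in shoot, 36 against 0 in root. They were uneven, with 12, 17, 6 and 1 in shoot A to D. The pooled level was at least 8.23-fold higher in shoot against 3 counts over the root libraries, a bound that shoot D alone would not give. Adding AOX1B would lower the shoot shares of AOX1A and AOX1C. AOX1D had 0 counts in all 8 libraries.

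**Figure D2:**
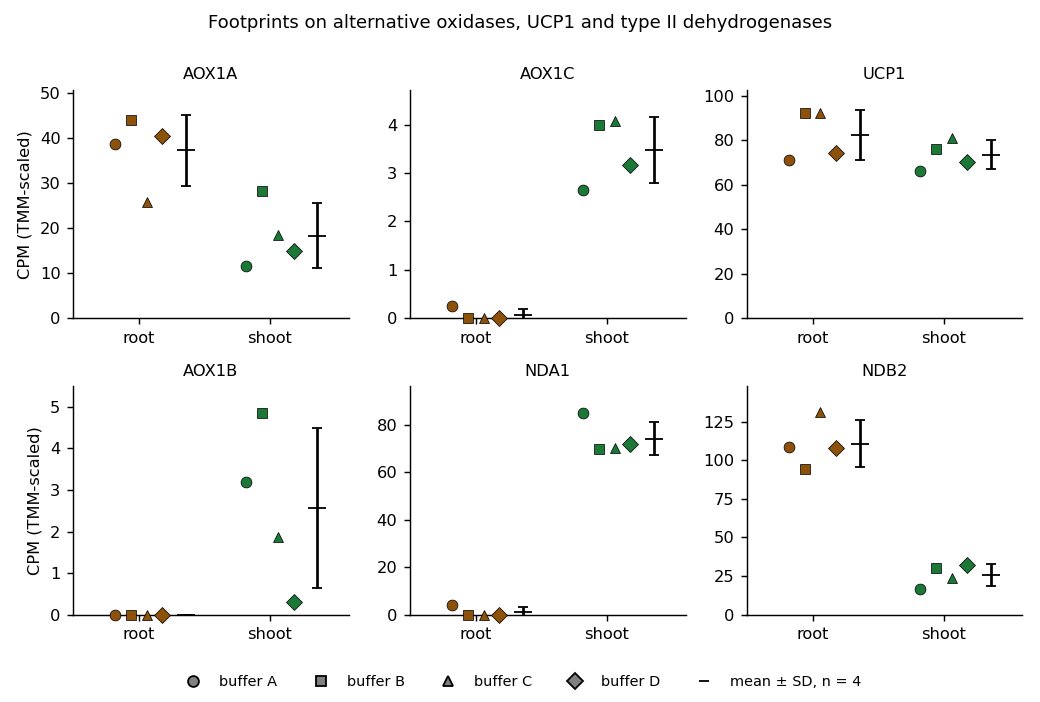
Footprint levels (CPM, linear axes from 0, each panel with its own scale) of AOX1A, AOX1C, UCP1, AOX1B and the type II NAD(P)H dehydrogenases NDA1 and NDB2. Points are single libraries with the buffer given by the symbol, and bars are the mean ± SD of 4 libraries. AOX1C, AOX1B and NDA1 sit at or near 0 in root, NDB2 is higher in all root libraries, and UCP1 overlaps between the tissues.

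UCP1 was close between the tissues. It had 71.0, 92.0, 92.0 and 74.3 CPM in root and 66.3, 76.1, 81.2 and 70.1 CPM in shoot. Libraries A and D were the lower ones in both tissues, and the tissues overlapped. The log2 fold change was 0.16 ± 0.17 (edgeR adjusted p = 0.489), a difference no larger than its error. With library totals alone it was 0.66 (adjusted p = 0.00666).

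Within libraries, the log2 ratio of UCP1 to summed beta was -4.95 ± 0.143 in root and -4.93 ± 0.0939 in shoot with overlapping values (SD, n = 4 each, two-sided exact permutation p = 0.8, adjusted p = 0.8). The ratio of AOX1A to summed beta was 1.85-fold higher in root, at -6.10 ± 0.377 against -6.99 ± 0.498, with overlap (two-sided exact permutation p = 0.0571, adjusted p = 0.08). The ratio of UCP1 to AOX1A was 1.16 ± 0.455 in root and 2.07 ± 0.454 in shoot on the log2 scale (two-sided exact permutation p = 0.0571, adjusted p = 0.08). The ratio of AOX1C to AOX1A did not overlap between the tissues, at -6.91 ± 0.339 in root and -2.29 ± 0.325 in shoot with 0.5 added to each count (two-sided exact permutation p = 0.0286, adjusted p = 0.08).

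The direction of small differences depended on how libraries were scaled. TMM factors were 1.17 to 1.22 in root and 0.830 to 0.849 in shoot. With library totals alone the median over all genes moved up by 0.49 on the log2 scale, to 0.38, and every member moved with it. A change of scaling moves all genes by nearly the same amount, so places relative to the median of all genes could hardly change. They are given as a description, not as a check. ATP3 stood 0.66 above that median under TMM and 0.67 with library totals, AOX1A 1.18 above it under both, UCP1 0.28 under both, and AT5G08690 0.04 under both.

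**Figure D3:**
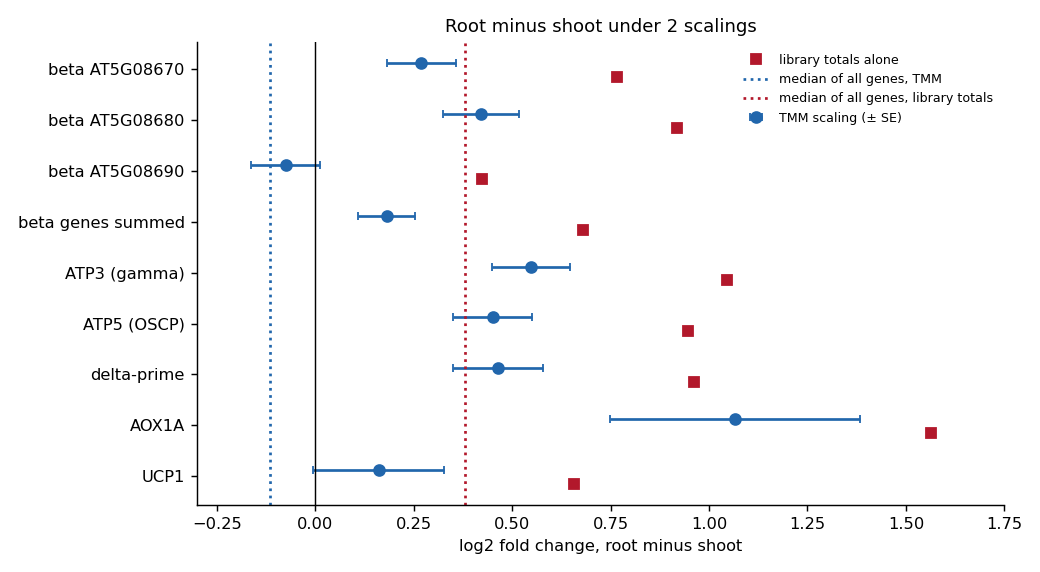
Log2 fold change, root minus shoot, of the 8 members tested and of the summed beta genes. Circles with bars are the values under TMM scaling ± SE, squares the values with library totals alone, and dotted lines the median of all genes under each scaling, at -0.12 and 0.38.

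Of 9 further nuclear genes listed for the complex, all tested, 4 were called higher in root and 0 lower. Their median log2 fold change was 0.32, against -0.12 over all genes. The count became 7 higher and 0 lower when only library totals were used, and the median 0.82. ATPQ (AT3G52300, subunit d of the stalk) had a log2 fold change of 0.54 ± 0.10 (edgeR adjusted p = 0.00162). MGP1 (AT2G21870, the plant subunit FAd) stood at 0.32 ± 0.10 (edgeR adjusted p = 0.0252), a call lost without root A, B or D or shoot A, B or D (0.25 to 0.32, adjusted p from 0.0603 to 0.145), without the filter on low counts (0.27, adjusted p = 0.0705) and with DESeq2 (adjusted p = 0.0693). AT4G29480, listed as a subunit g, stood at 0.49 ± 0.14 (edgeR adjusted p = 0.0157), a call lost without root A (adjusted p = 0.0539), root D (adjusted p = 0.0733), shoot A (adjusted p = 0.0548) or shoot D (adjusted p = 0.0789).

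The last of these 4 genes, AT2G07698, is a nuclear copy of the alpha gene, and its counts were 1.00 to 1.07 times those of the mitochondrial alpha gene atp1 (ATMG01190) in every library. Its value of 1.44 ± 0.10 (edgeR adjusted p = 6.96e-07) can therefore not be told apart from that of atp1. All 6 mitochondria-encoded genes of the complex were called higher in root, with a median of 1.18. They include atp6-1 and atp6-2 (ATMG01170), which are both atp6 genes. Whether reads shared between them had a part was not tested. Root was higher in each of the 4 buffers for all 6, but root and shoot levels overlapped for all 6, with root D far above the other root libraries. For atp1 the root libraries A to D had 1468, 1094, 930 and 3020 CPM and the shoot libraries 569, 413, 394 and 957 CPM. The alpha gene atp1 stood at 1.42 ± 0.10, atp9 (ATMG01080, the proton-carrying ring) at 1.39 ± 0.14, atp4 (ATMG00640) at 1.12 ± 0.19 and atp6-1 (ATMG00410) at 1.14 ± 0.14 (edgeR adjusted p from 7.95e-07 to 6.80e-04).

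The extraction buffers were the second axis of the design, and the question there was whether salt or Tris changed the footprints on these genes. For the nuclear members no buffer effect was called. Of the 8 members tested, 0 were called between any of the 4 buffers, 0 between A and C and 0 between D and B (edgeR), and 0 had an unadjusted p under 0.05 in these tests, with edgeR under TMM scaling and all libraries or with DESeq2. With library totals alone 1 member had an unadjusted p of 0.0432 for D minus B, and without shoot B 1 member had 0.0182 for D minus B and 1 had 0.0414 for any buffer, with none called after adjustment by edgeR. Over all genes 0.0575%, 0% and 0.0447% were called in these tests. Member values ran from -0.33 to 0.03 for A minus C and from -0.52 to 0.32 for D minus B on the log2 scale, with standard errors between 0.12 and 0.44. In simulated counts the test found 6.32% of changes of 1 and 38.3% of changes of 2 on the log2 scale for D minus B, so a moderate buffer effect on a typical gene could be missed. The trend with MgCl2, which runs in step with KCl, was not called as different between the tissues for any of the 8 members (edgeR, 0 also at an unadjusted p under 0.05 and with DESeq2; 0% of all genes).

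The subunits made inside the mitochondrion varied more with the buffer than their nuclear partners. In the test for any buffer 2 of the 6 mitochondria-encoded genes were called, atp1 (edgeR adjusted p = 0.0114) and atp9 (edgeR adjusted p = 0.0347). With each of the 8 libraries left out in turn, the atp1 call was lost 4 times and the atp9 call 6 times. Relative to buffer B, the 6 mitochondria-encoded genes stood between 1.02 and 1.73 higher in root D and between 0.76 and 1.43 higher in shoot D on the log2 scale. The 6 nuclear ATP synthase members stood between -0.20 and 0.47 in root D and between -0.09 and 0.18 in shoot D. All 6 mitochondria-encoded genes rose in the order C, B, A, D in root and all 6 in shoot, while 0 of the 6 nuclear genes showed that order in either tissue. This order was not among the planned comparisons and was not tested. A gene without a buffer effect would seldom show it, so its absence in the nuclear genes says little.

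Set against beta, the counts of atp1 were 0.588, 0.415, 0.354 and 1.28 times those of summed beta in root A to D, and 0.265, 0.181, 0.174 and 0.432 times in shoot. The ratio in buffer D was 3.08 times that in buffer B in root and 2.39 times in shoot. This ratio was chosen after its values were seen, and with 2 libraries per buffer it was not tested. It is compared between libraries only, not read as the level of one gene against the other. Whether footprints of mitochondrial and cytosolic ribosomes were captured alike was not tested. The D minus B difference of atp1 itself was 1.34 ± 0.14 (edgeR adjusted p = 0.0118), a call lost without root B (adjusted p = 0.903), root C (adjusted p = 0.0690), root D (1.18, adjusted p = 0.232) or shoot B (adjusted p = 0.262). For atp9 it was 1.37 ± 0.20 (edgeR adjusted p = 0.0619), and it passed with library totals alone (adjusted p = 0.0447), without the filter on low counts (adjusted p = 1.67e-04), with DESeq2 (adjusted p = 6.87e-04) and without shoot D (1.73, adjusted p = 0.00506).

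**Figure D4:**
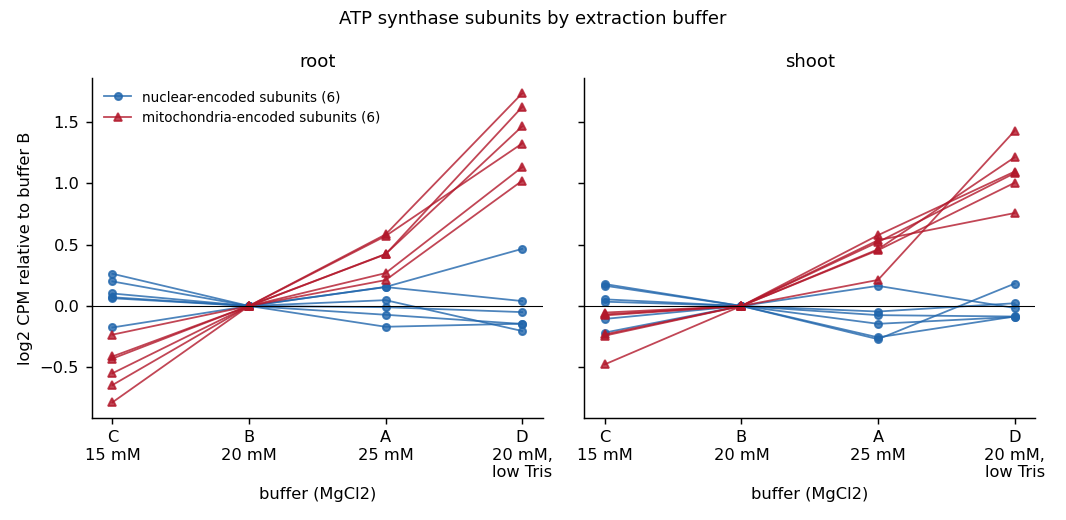
Log2 CPM of ATP synthase subunits relative to buffer B of the same tissue, in root and shoot, with buffers ordered by MgCl2 (15, 20 and 25 mM) and buffer D, with 100 mM Tris, last. Each line is 1 gene. The 6 mitochondria-encoded genes rise from C to D in both tissues, and the 6 nuclear members stay between -0.27 and 0.47.

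In mitochondria, type II NAD(P)H dehydrogenases feed electrons into ubiquinone without pumping protons and form a bypass chain with the alternative oxidases. Whether the product of each listed gene, NDC1 among them, acts only there was not tested. Of 7 listed, 6 were tested, 1 was higher in root and 4 were lower. NDB2 (AT4G05020), an enzyme of the outer face of the inner membrane, ranged from 94.6 to 131 CPM in root and from 16.4 to 32.3 CPM in shoot, with a log2 fold change of 2.15 ± 0.24 (edgeR adjusted p = 3.23e-05). NDA1 (AT1G07180), an enzyme of the matrix face, had 1017 counts in shoot and 17 in root, all of those in root A, and a log2 fold change of -5.85 ± 0.64 (edgeR adjusted p = 3.07e-05). NDB1 (AT4G28220) and NDC1 (AT5G08740) both had -1.57 (adjusted p = 0.00185 and 0.00215), and NDB3 (AT4G21490), named after its values were seen, -3.67 ± 0.85 (adjusted p = 0.00545).

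Without root A or shoot A the fitted value of NDA1 was -10.6 (adjusted p = 1.26e-05 and 1.18e-05), a value that depends on the prior count. The pooled NDA1 level was 41.1-fold higher in shoot, with an exact 95% interval from 25.5 to 70.8 that covers counting error only. The plastid terminal oxidase IM (AT4G22260), a relative of the alternative oxidases in the chloroplast, had a log2 fold change of -0.92 ± 0.44 (edgeR adjusted p = 0.129).

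Of 5 further uncoupling protein genes, 4 were tested, 1 was higher in root and 0 were lower. DIC1 (AT2G22500, also named UCP5), a dicarboxylate carrier, had 43.5, 54.3, 38.1 and 42.7 CPM in root and 17.8, 8.83, 9.40 and 10.5 CPM in shoot. All root libraries lay above all shoot libraries, with a log2 fold change of 1.97 ± 0.32 (edgeR adjusted p = 5.17e-04). UCP2 (0.33 ± 0.46), UCP3 (-0.38 ± 0.65) and DIC2 (-0.14 ± 0.94) did not pass, and their directions changed with single libraries left out.

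The carriers that exchange ATP for ADP and bring in phosphate supply the ATP synthase with its substrates. Of 6 listed, 4 were tested, 0 were higher in root and 1 was lower. AAC2 (AT5G13490), an ADP/ATP carrier, had 131, 97.7, 124 and 136 CPM in root and 226, 326, 250 and 250 CPM in shoot, without overlap and with a log2 fold change of -1.10 ± 0.17 (edgeR adjusted p = 4.03e-04). AAC1 (AT3G08580) stood at -0.12 (adjusted p = 0.171), the phosphate carrier PHT3;1 (AT5G14040) at -0.12 (adjusted p = 0.308) and AAC3 (AT4G28390) at -0.80 (adjusted p = 0.414). With library totals alone AAC1 and PHT3;1 stood at 0.38 and were called higher in root.

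Of 13 nuclear genes of the cytochrome pathway, the proton-pumping route beside the alternative oxidases, all were tested, 5 were called higher in root and 1 lower. Their median log2 fold change was 0.28. The count became 11 higher and 0 lower when only library totals were used. AT1G80230, a subunit 5b of complex IV, stood at 0.77 ± 0.20 (edgeR adjusted p = 0.0104). AT1G51980, a processing peptidase subunit held in complex III, stood at 0.40 ± 0.10 (edgeR adjusted p = 0.00772), and the call was lost without root C (adjusted p = 0.0568) or shoot C (adjusted p = 0.0580). COX6B (AT1G22450) stood at 0.40 (adjusted p = 0.0434), a call lost without root or shoot A, B or C (adjusted p from 0.0632 to 0.203), without the filter on low counts (adjusted p = 0.0955) and with DESeq2 (adjusted p = 0.0742). The other called genes of this list were named after their values were seen. AT3G15640, also a subunit 5b, stood at 0.47 (adjusted p = 0.0304), a call lost without any 1 of the 8 libraries (adjusted p from 0.0531 to 0.133) and without the filter (adjusted p = 0.0790). The Rieske protein gene AT5G13430 stood at 0.52 (adjusted p = 0.0227), a call lost without root or shoot B, C or D (adjusted p from 0.0646 to 0.100). The lower gene, the cytochrome c1 gene AT5G40810, stood at -0.51 (adjusted p = 0.0188), a call lost without root A (adjusted p = 0.0604), root C (adjusted p = 0.0963) or shoot C (adjusted p = 0.0810) and with library totals alone (-0.02, adjusted p = 0.942). Of the 5 higher calls, that of AT1G80230 was kept with each library left out. MPPBETA (AT3G02090, 0.19, adjusted p = 0.201) and the cytochrome c1 gene AT3G27240 (0.30, adjusted p = 0.0903) did not pass. MPPBETA did pass without root D (0.30, adjusted p = 0.0389) or shoot D (0.28, adjusted p = 0.0453).

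Of 5 genes listed as moving with AOX1A under mitochondrial stress, all tested, 1 was higher in root and 1 lower. OM66 (AT3G50930), a protein of the outer mitochondrial membrane, had 48.0, 57.9, 48.6 and 71.4 CPM in root and 3.71, 5.98, 7.52 and 8.25 CPM in shoot, with a log2 fold change of 3.17 ± 0.30 (edgeR adjusted p = 1.16e-05). The small heat shock protein gene AT5G51440 went the other way, with 21.0, 18.6, 14.3 and 23.6 CPM in root and 49.6, 33.9, 42.3 and 52.0 CPM in shoot (-1.20 ± 0.27, edgeR adjusted p = 0.00414). With library totals alone it was -0.70 (adjusted p = 0.0557). ANAC017 (AT1G34190), a transcription factor known to act on AOX1A, stood at 0.31 ± 0.30 and ANAC013 (AT1G32870) at 0.40 ± 0.76, neither called.

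Across the 8 libraries, the genes whose log2 CPM followed a member most closely were looked up among 7455 genes with a mean of at least 20 CPM. For AOX1A they were the ammonium transporter gene AMT1;1 (Pearson r = 0.978), AT5G02230 (r = 0.963) and BTI1 (r = 0.961). For UCP1 they were ACBP4 (r = 0.916), AT5G16280 (r = 0.915) and AT1G04810 (r = 0.912). For summed beta they were AT4G20320 (r = 0.986), AT3G63052 (r = 0.986) and UBC5 (r = 0.983). All 8 points share the tissue contrast and the library scaling, and with so many genes searched these values are a description only.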

How the data were processed

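Ribosome footprints were measured in 8 libraries, 4 from root and 4 from shoot. The deposited table holds the authors' whole-number counts of footprints per coding sequence, not normalized, with 27416 genes and 8 columns, all of which were used. Per the submitters' processing notes, Bowtie2, STAR 2.5.1b and the TAIR10 genome were used, without stated roles. How footprints were selected by length, which program counted them and how multi-mapping reads were treated is not given in the sources used here. Library totals ran from 1120218 to 4501213 counts. Precision is limited by this depth, and intervals cover counting error only.

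Root and shoot were compared with edgeR 4.0.16 in R 4.3.3 (quasi-likelihood F test, TMM scaling, tissue and buffer as terms, 3 residual degrees of freedom). Genes were kept with filterByExpr by tissue (minimum count 10, minimum total 15), and 15664 genes were tested with Benjamini-Hochberg adjustment at 0.05. The same fit gave the tests for any buffer, A minus C and D minus B, and another with a term for tissue by MgCl2 gave the interaction. Standard errors are approximate, taken as the log2 fold change over the square root of F. The replicate numbers are names for the buffers, so the buffer term is the replicate block, and samples with the same number share the extraction buffer by the labels. The fit of the summed beta genes replaced the 3 genes by their sum. Ratios and shares within libraries were compared by two-sided exact permutation tests (scipy 1.17.1, Python 3.11.15), with 0.5 added to each count for ratios. Of 9 planned ratios, 7 could be formed, because AOX2 had 1 count in all. The tests were tried on simulated counts. There the root minus shoot test found 21.4% of changes of 1 and 62.8% of changes of 2 on the log2 scale. It also called 8 genes that had not been changed. A moderate tissue difference in a typical gene could therefore be missed.

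Alternatives were library totals without TMM factors, DESeq2 size factors in edgeR, no filter, no buffer term, DESeq2 1.42.0, a pseudocount of 1 and leaving out each library, the last of which was added for the interaction after the data were seen. The members and the 8 gene lists were chosen with earlier results of these data known. Named genes were all members, the 4 genes of each list with the highest mean CPM, the passing gene of each list with the largest change, and the 3 genes most like AOX1A, UCP1 and summed beta. Gene symbols and gene order came from the RefSeq table (TAIR10.1), which matched 26719 identifiers and all 10 members. Levels per coding length and promoter motifs were not analysed here.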

Additional observations from a re-analysis of the deposited data

Results flagged for a closer look

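Among 46 series of 4 libraries checked for a library far from the other 3 of its tissue, 11 had one. Chance gives about 1 in 20 for independent series, but several of these series share the same counts, so no excess is read from the 11. Most of the 11 rest on very few counts. In root A the single counts of AOX1C and AOX2 gave 0.253 CPM each, and there each gene held 0.645% of the AOX counts and AOX1A 98.7%, against 0 counts and 100% in the other root libraries.

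In buffer B, the shoot library stood apart in the make-up of the 3 AOX members. It had an AOX1A share of 87.6%, an AOX1C share of 12.4% and a log2 ratio of AOX1C to AOX1A of -2.78. AOX1B is not part of these shares, and its highest shoot count, 17, was also in shoot B. That library had the highest AOX1A level in shoot, 28.2 CPM. Root B stood low in the same ratio, at -7.42, where AOX1C had 0 counts, and low in the log2 ratio of OSCP to summed beta, at -2.59. Root C stood low in the share of AT5G08690 among the beta genes, at 30.2%.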

How the results depend on the processing

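For the root against shoot comparison, 6315 genes were called, and 5266 to 6104 with single libraries left out. Of the 8 members, 6 were called, 8 with library totals, 5 without the filter (10 members tested) and with DESeq2, and 4 to 5 with single libraries left out. Without the replicate block 7019 genes and the same number of members, 6, were called, and DIC2 stood at 0.30. With library totals, summed beta rose to 0.68 and passed, and the direction turned for AT5G08690 (0.42), UCP3 (0.11), DIC2 (0.36), AAC1 (0.38) and PHT3;1 (0.38). With single libraries left out, summed beta ran from 0.15 to 0.20, UCP2 from -0.12 to 0.72, UCP3 from -0.86 to 0.13, DIC2 from -0.62 to 0.55 and ANAC013 from -0.29 to 1.11. The 9 genes called for any buffer became 14 with library totals, 23 without the filter and 24 with DESeq2, and 0 to 13 with single libraries left out. The 7 called for D minus B became 2 with DESeq2 size factors, 15 without the filter and 16 with DESeq2, and 0 to 17 with single libraries left out. The interaction called 0 genes, 2 without the filter and 0 to 7 with single libraries left out. The cause of these moves was not tested. In simulated counts the interaction test recovered 1.03% of changes of 2 on the log2 scale per 10 mM MgCl2, so a missing call there says little.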
